A study of Mus musculus with 17 samples.

Results

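The cell cycle and DNA replication genes described here are 33 named genes, all present in a count table of 34682 mouse genes. They were chosen by name: 14 act in S phase and DNA replication, 15 act in G2 and mitosis, 2 are D-type cyclins (Ccnd1, Ccnd2) and 2 are inhibitors of cyclin-dependent kinases (Cdkn1a, Cdkn1b). Of these, 31 had enough counts to be tested beside 17655 genes in all. The other 2, the licensing factor Cdc6 and the centromeric histone Cenpa, had totals of 44 and 54 counts over all libraries.

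RNA with poly(A) tails was sequenced from limb buds of mouse embryos at stage E12.5. The mutants carry structural changes at the locus of Sox9 and its neighbours Kcnj2 and Kcnj16 on chromosome 11, and the series asks what those changes do to expression. There were 4 wild-type (WT) libraries, 2 of the duplication Dup-C, 2 of the duplication Dup-L, and 4 of Dup-LΔBor, a genotype named for both Dup-L and the boundary deletion ΔBor. ΔBor alone had 2 heterozygous libraries (ΔBor het) and 1 homozygous library (ΔBor hom). The labels give neither the strain nor the zygosity of Dup-C, Dup-L and Dup-LΔBor, nor which limb was taken, nor whether replicates are separate embryos. Any p-value below thus rests on how far these samples vary, and that variation may be technical in origin.

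DNA replication starts when the MCM2-7 helicase is loaded on origins by Cdc6 and Cdt1 and is fired in S phase, where Pcna clamps the polymerases and Rrm2 and Tyms supply nucleotides. Genes of S phase are switched on by E2F factors, downstream of the D-type and E-type cyclins, while genes of G2 and mitosis are switched on later through CCAAT boxes and the element called CHR. In the limb bud the undifferentiated distal mesenchyme and the ectoderm proliferate, and cells that condense into cartilage or fuse into muscle leave the cycle. In bulk RNA, fewer cycling cells and less RNA per cycling cell cannot be told apart.

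Upstream sequence was taken from RefSeq (build GRCm38.p6), which had an entry for 27 of the 33 genes, as the 250 bases before each start site. The letters searched on both strands were TTTCCCGC, TTTCGCGC, TTTGCCGC and TTTGGCGC for E2F, TTTGAA for CHR, and CCAAT. An E2F match stood in 4 of 12 S phase genes (Mcm5, Mcm6, Mcm7 and Cdc6) and in 1 of 13 mitotic genes (Cdk1). The share was 2.16% of the 27025 genes with an entry and 3.48% of the 11709 of them that were tested. Mcm7 has more than 1 start site in RefSeq, and only 1 of them has the match. A CHR match stood in 5 of 13 mitotic genes (Mki67, Top2a, Ccnb2, Cdk1 and Cdc20) and in 1 of 12 S phase genes (Mcm2). The shares were 18.3% of all genes with an entry and 12.9% of those tested. CCAAT stood in 11 of 13 and 7 of 12, against 37.5% of all genes with an entry and 39.2% of those tested. The 3 genes shown, 2 of S phase and 1 of mitosis, were picked after their values were seen, from those that passed the test in the same 3 comparisons below. Cdt1, Mcm3, Cdc20 and Ccnd1 passed in those comparisons too. Capitals mark the matches, and in Mcm5 the capital run holds TTTCGCGC and, overlapping it on the other strand, GCGCCAAA.
Mcm2 (helicase subunit, chr6:88898781-88899030, minus strand): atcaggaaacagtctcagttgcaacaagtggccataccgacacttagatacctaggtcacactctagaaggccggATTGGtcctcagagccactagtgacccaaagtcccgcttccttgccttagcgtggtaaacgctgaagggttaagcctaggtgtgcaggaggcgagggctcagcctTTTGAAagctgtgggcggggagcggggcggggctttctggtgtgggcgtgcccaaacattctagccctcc
Mcm5 (helicase subunit, chr8:75109259-75109508, plus strand): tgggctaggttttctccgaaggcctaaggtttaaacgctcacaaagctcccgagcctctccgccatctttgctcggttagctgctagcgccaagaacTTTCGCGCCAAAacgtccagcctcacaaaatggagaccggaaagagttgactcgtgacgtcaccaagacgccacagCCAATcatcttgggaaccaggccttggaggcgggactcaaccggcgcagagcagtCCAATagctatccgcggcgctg
Plk1 (mitotic kinase, chr7:122159185-122159434, plus strand): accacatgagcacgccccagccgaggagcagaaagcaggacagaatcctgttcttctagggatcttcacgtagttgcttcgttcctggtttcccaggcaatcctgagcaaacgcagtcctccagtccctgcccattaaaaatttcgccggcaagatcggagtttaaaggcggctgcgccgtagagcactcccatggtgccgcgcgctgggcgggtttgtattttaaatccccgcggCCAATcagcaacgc
Mcm2 thus holds CHR letters, Mcm5 holds E2F letters, and Plk1 holds a single CCAAT. Of the genes not shown, Cdt1 holds no match, Mcm3 holds CCAAT alone, Cdc20 holds CHR and CCAAT letters, and Ccnd1 had no entry. A match describes the letters of this window and is not a measured site.

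The 31 tested genes were well expressed. On the authors' FPKM scale, which divides by gene length and so allows levels to be compared between genes, the mean over 15 libraries ran from 3.77 for Ccne2, an E-type cyclin, to 269.9 for Pcna. Top2a (161), which untangles mitotic chromosomes, Ccnd2 (142) and Mcm7 (117) followed Pcna. At the low end, Cdkn1a (7.66) and then Pttg1 stood just above Ccne2. Most levels moved little: Ccnb2, a mitotic cyclin, stayed between 101 and 121 CPM (counts scaled to a common library size) in every library, and Mcm4 between 254 and 315 CPM. Relative to their lowest value, Pttg1 (11.9 to 37.3 CPM), Ccne2 (7.66 to 21.0 CPM) and Cdkn1b (39.7 to 105 CPM) had the widest ranges of the 31. Cdc6 was at 0 to 0.187 CPM and Cenpa at 0.0275 to 0.194 CPM. The globin genes Hba-a2 and Hbb-b1 also had no counts, while other erythroid markers were abundant, so a near-empty entry is no measure of absence.

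Ranges by genotype follow for members with no call or a single one. Mcm6 was at 254 to 346 CPM in WT, 319 to 324 CPM in Dup-L and 343 CPM in ΔBor hom, and Mcm7 at 296 to 354, 266 to 272 and 332 CPM in the same order. Pcna was at 308 to 443 CPM in WT and 349 to 356 CPM in Dup-L, and Tyms at 101 to 129 and 109 to 112 CPM. Ccne1 was at 52.6 to 59.7 CPM in WT and 47.9 to 51.1 CPM in Dup-L. Levels of these replication genes in Dup-L thus lay within or just under the WT range. Rrm2 was at 155 to 238 CPM in WT and 138 to 185 CPM in Dup-LΔBor, and Cdk1, the mitotic kinase, at 129 to 174 and 114 to 138 CPM. Ccna2 was at 166 to 207 CPM in WT, 223 to 231 CPM in Dup-L and 239.6 CPM in ΔBor hom, and Ccnb1 at 201 to 296, 242 to 249.9 and 269 CPM. The mitotic checkpoint and Aurora kinases Aurka (74.9 to 106 CPM over all libraries), Aurkb (70.1 to 96.2 CPM) and Bub1b (173 to 233 CPM) had overlapping ranges in most genotypes.

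**Figure D1:**
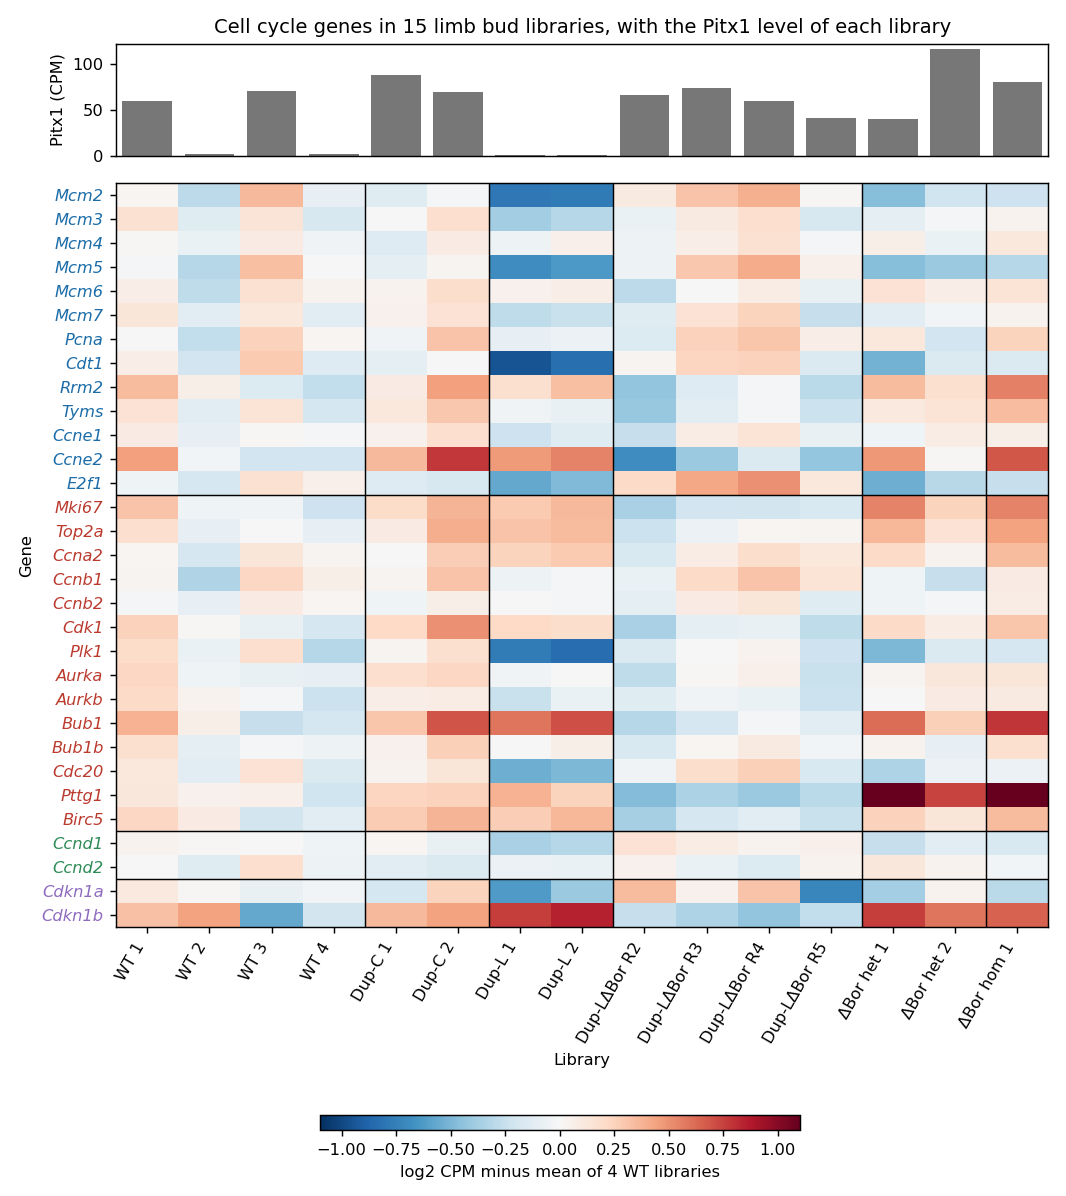
Level of each of the 31 tested cell cycle genes (rows, grouped by role and coloured blue for S phase, red for mitosis, green for D-type cyclins and purple for inhibitors) in each of the 15 libraries (columns), as log2 CPM minus the mean of the 4 WT libraries. The bars above give Pitx1 in CPM. Both Dup-L libraries are low in Mcm2, Mcm5, Cdt1 and Plk1, and the 3 ΔBor libraries are high in Pttg1.

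Depth was 34486256 to 53711742 counts per library, and 3 features of the libraries bear on what follows. First, the hindlimb regulator Pitx1 was at 59.8 and 70.1 CPM in WT 1 and WT 3, at 1.83 CPM in both WT 2 and WT 4, at 0.518 and 0.677 CPM in Dup-L, and at 39.9 to 116 CPM in all other libraries. Tbx4 was at 18.8 to 27.6 CPM in WT 2, WT 4 and Dup-L and at 62.2 to 109 CPM elsewhere, while Tbx5, a forelimb gene, was at 184 to 233 CPM in those 4 libraries and at 86.2 to 136 CPM elsewhere. Second, library numbers in the column headers fall into 2 ranges, called batches here: WT 3, WT 4 and Dup-LΔBor form the second batch. Last, fold changes followed the GC content of transcripts. From the lowest to the highest of 5 GC bins of all genes, the median log2 fold change went from 0.45 to -0.52 in Dup-L, 0.36 to -0.34 in ΔBor hom, 0.28 to -0.27 in ΔBor het, 0.17 to -0.12 in Dup-C and -0.09 to 0.02 in Dup-LΔBor, each against WT. It went from -0.55 to 0.55 in Dup-LΔBor against Dup-L and from -0.28 to 0.39 in Dup-C against Dup-L.

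Within WT, the S phase genes were higher in the libraries with high Pitx1. All 13 tested S phase genes were higher in WT 1 than in WT 2 and higher in WT 3 than in WT 4, as were 12 of 14 mitotic genes, against 34.1% of all genes tested. The exceptions among mitotic genes were Bub1, a spindle checkpoint kinase, and Birc5, a subunit of the Aurora B complex, with log2 ratios of -0.06 and -0.08 in WT 3 over WT 4. The median log2 ratio of the S phase genes was 0.29 in WT 1 over WT 2 and 0.23 in WT 3 over WT 4, and that of the mitotic genes 0.26 and 0.11. Over all genes the medians were 0.00 and -0.01. Both D-type cyclins were higher in both pairs too. Cdkn1b, which encodes p27 and holds cells in G1, went the other way, with log2 ratios of -0.13 and -0.36.

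Over the 4 libraries, 15 of the 31 genes did not overlap, with WT 1 and 3 both above WT 2 and 4, against 19.5% of all genes. None of the 31 lay the other way, against 22.9%. The 15 comprised 8 S phase genes (Mcm2, Mcm3, Mcm4, Mcm6, Mcm7, Cdt1, Tyms and Ccne1), 6 mitotic genes (Mki67, Top2a, Plk1, Bub1b, Cdc20 and Pttg1) and Ccnd2. Plk1 stood at 131 and 129 CPM against 108 and 91.3 CPM, and Mcm2 at 331 and 417 CPM against 267 and 306 CPM. In Mcm2 the higher of the low-Pitx1 libraries was thus 306 CPM and the lower of the high-Pitx1 libraries 331 CPM.

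These WT libraries were sorted by Pitx1 after the data were seen and no test was made. Medians by GC content stayed between -0.06 and 0.05 in both ratios, over 5 bins of all genes. Markers of some other cell types moved along with Pitx1, and those of others did not. Summed over 9 cartilage markers, WT 1 and 3 had 1262 and 922 CPM and WT 2 and 4 had 1657 and 1459.7 CPM. The 10 skeletal muscle markers summed to 442 and 633 CPM against 735 and 939.5 CPM, and 10 surface ectoderm markers to 906 and 1067 CPM against 675 and 762 CPM. Erythroid markers, of which 8 of 10 had counts, summed to 3705 and 5031 CPM against 1788 and 3132 CPM. The other sums overlapped. Limb bud mesenchyme had 2221 and 1674 CPM against 1824 and 1542 CPM, and endothelium 354 and 447 CPM against 405 and 385 CPM. Macrophage markers had 71.7 and 89.7 CPM against 79.0 and 85.6 CPM, and nerve and glia 154 and 179 CPM against 171 and 183 CPM. The part of these cell types in the cell cycle levels was not tested, and limb type, stage and cell makeup cannot be told apart here.

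**Figure D2:**
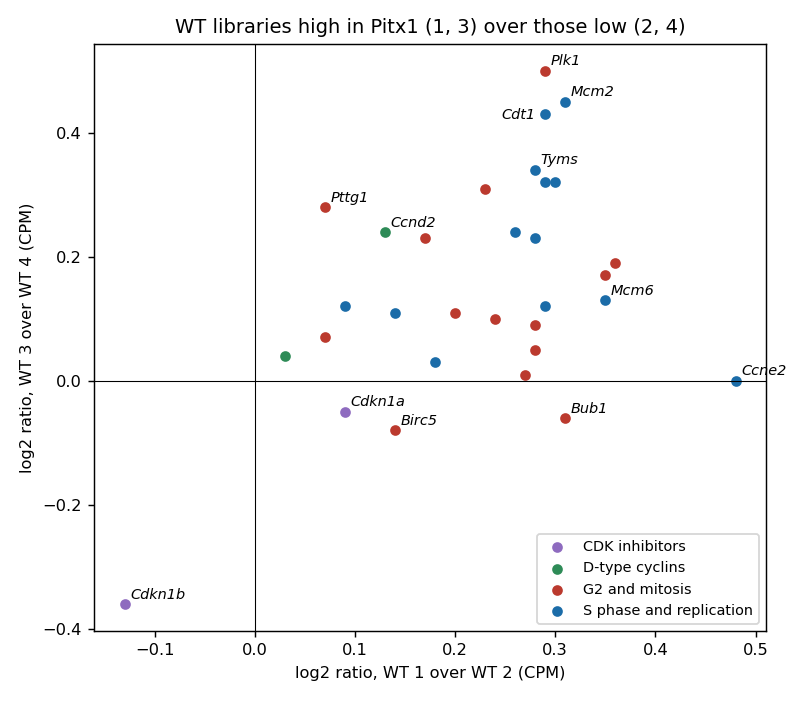
Log2 ratio of each tested cell cycle gene in WT 1 over WT 2 (x axis, first batch) and in WT 3 over WT 4 (y axis, second batch), coloured by role. WT 1 and 3 are the libraries high in Pitx1. All 13 S phase genes lie at or above 0 on both axes, with Ccne2 at 0.48 and 0.00, and Cdkn1b lies below 0 on both, at -0.13 and -0.36.

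A second split of WT follows the batch. Of the 31 genes, 10 were lower in both WT 3 and WT 4 than in WT 1 and WT 2, against 23.3% of all genes, and 6 were higher in both, against 21.1%. The 10 were Rrm2, Ccne2, Cdk1, Aurka, Aurkb, Bub1, Birc5, Ccnd1, Cdkn1a and Cdkn1b, and the 6 were Mcm5, Pcna, E2f1, Ccna2, Ccnb1 and Ccnb2. Cdkn1b had 73.1 and 79.7 CPM in the first batch and 39.7 and 50.8 CPM in the second. Bub1 stood at 139 and 112 CPM against 89.7 and 93.2 CPM. Lower and higher members were thus both present, as among all genes.

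The duplication Dup-L was compared with WT to ask what it does to these genes. Of 31 genes, 3 rose and 8 fell, a share close to the 32.4% of all genes called in this comparison. Those that fell were 5 of 13 S phase genes, the mitotic kinase Plk1, Cdc20 and Ccnd1. Those that rose were Cdkn1b, Bub1 and Birc5. The median log2 fold change was -0.18 over the 13 S phase genes and 0.11 over the 14 mitotic genes, against 0.00 over all genes. Calls here and below have an adjusted p under 0.05 in edgeR's quasi-likelihood test, adjusted by Benjamini-Hochberg over all genes tested. The 4 WT libraries serve in every comparison with WT, so those comparisons are not independent.

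Among the replication genes, Cdt1, which loads the helicase, had the lowest fold change, -0.90 (SE 0.16, adjusted p = 0.00166). Its levels were 35.5 and 38.6 CPM in Dup-L and 72.0, 59.1, 83.5 and 62.2 CPM in WT 1 to 4, so the groups did not overlap. Mcm2 was at 189 and 190.2 CPM in Dup-L against 331, 267, 417 and 306 CPM, or -0.80 (SE 0.16, adjusted p = 0.0026) on the log2 scale. Mcm5 was at 243 and 253 CPM against 387, 314, 490.4 and 392 CPM, or -0.67 (SE 0.16, adjusted p = 0.00555). In Mcm2 and Mcm5 too, every Dup-L value lay below every WT value. The genes named here and below were picked because they passed the test, so a lack of overlap adds no support. E2f1, the transcription factor of S phase genes, fell by 0.53 on the log2 scale (adjusted p = 0.006), with 35.7 and 37.6 CPM against 46.3 to 59.2 CPM. Mcm3 fell by 0.35 (adjusted p = 0.0416), with 177 and 186 CPM against 204 to 259 CPM.

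The 6 subunits of the helicase act as 1 ring but were not all called. Mcm2, Mcm3 and Mcm5 fell, while Mcm7 was at -0.27 (adjusted p = 0.134), Mcm6 at 0.05 (adjusted p = 0.786) and Mcm4 at 0.00 (adjusted p = 0.995). Differences between subunits were not tested, and Mcm3 did not pass within the first batch or with the batch as a term. Transcript GC content was 51.7%, 52.6% and 51.9% in Mcm2, Mcm3 and Mcm5 and 53.4%, 47.3% and 45.5% in Mcm7, Mcm6 and Mcm4. With offsets for GC content and length, all 6 lay below 0, at -0.67 for Mcm2, -0.54 for Mcm5, -0.25 for Mcm4, -0.18 for Mcm3, -0.07 for Mcm6 and -0.06 for Mcm7, and of these Mcm2 passed (adjusted p = 0.025).

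Of the mitotic genes, Plk1 fell by 0.82 (SE 0.14, adjusted p = 0.00179), with 66.7 and 63.6 CPM in Dup-L against 131, 108, 129 and 91.3 CPM in WT. Cdc20 fell by 0.52 (SE 0.13, adjusted p = 0.00798), with 104 and 107 CPM against 163, 139, 168 and 135 CPM. Both were below all WT libraries, while Bub1 rose by 0.63 (SE 0.16, adjusted p = 0.00875), to 161 and 175 CPM from 139, 112, 89.7 and 93.2 CPM. Birc5 rose by 0.31 (SE 0.11, adjusted p = 0.0449), to 114 and 122 CPM from 111, 101, 82.3 and 87.0 CPM. Neither Bub1 nor Birc5 passed within the first batch or with the batch as a term. The mitotic genes most used as proliferation markers did not pass: Mki67 was at 0.31 (adjusted p = 0.0938), Top2a at 0.33 (adjusted p = 0.0506) and Ccnb1 at -0.05 (adjusted p = 0.822).

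Cyclin D1, which couples growth signals to G1 kinases, fell in Dup-L by 0.34 (SE 0.08, adjusted p = 0.00718). Ccnd1 was at 232 and 238 CPM against 305, 299.7, 295 and 287 CPM in WT, a narrow range in each group. Ccnd2 did not follow, with 969 and 967 CPM against 1011, 927, 1155 and 978 CPM and a log2 fold change of -0.07 (adjusted p = 0.642). Of the inhibitors, Cdkn1b rose by 0.74 (SE 0.20, adjusted p = 0.0109), to 99.0 and 105 CPM from 73.1, 79.7, 39.7 and 50.8 CPM. Within the first batch, where the WT libraries were the higher 2, Cdkn1b still passed at 0.39 (adjusted p = 0.0294). It was the only rise in that fit, beside 7 falls that left out Mcm3, where 17.6% of all genes were called. Cdkn1a, which encodes p21, was at 13.2 and 15.4 CPM against 21.9, 20.6, 19.2 and 19.9 CPM, with a log2 fold change of -0.51 that did not pass (adjusted p = 0.112).

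The Dup-L calls were arranged by GC content. The 8 genes that fell had transcripts of 50.9% to 58.3% GC, the 3 that rose 41.0% to 47.4%, and the 20 that did not pass 36.3% to 54.4%. Offsets for GC content and length left 0 of the 31 rising (edgeR) and 2 falling, Mcm2 and Ccnd1 (-0.26, adjusted p = 0.0423), where 5.87% of all genes were called. In that fit the 13 S phase genes all lay below 0, with a median of -0.24 against 0.02 over all genes, and the mitotic genes had a median of 0.03. E2f1 moved from -0.53 to -0.03, Bub1 from 0.63 to 0.13 and Cdkn1b from 0.74 to 0.39.

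**Figure D3:**
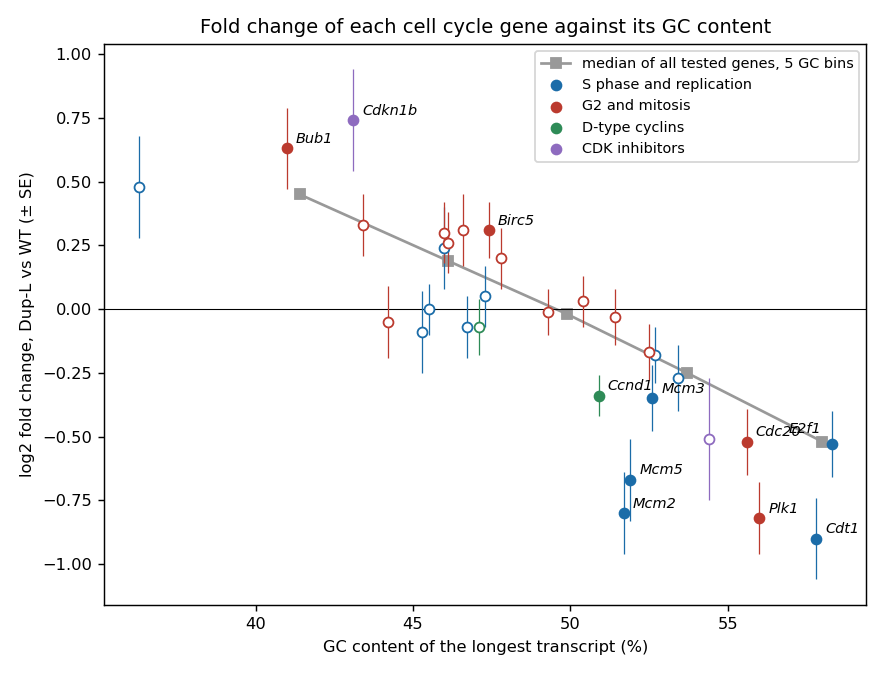
Log2 fold change of each tested cell cycle gene in Dup-L against WT (y axis, bars ± SE) by the GC content of its longest transcript in percent (x axis). Filled points passed the threshold and open points did not, and the grey line joins the medians of 5 bins of all tested genes. Mcm2 (-0.80) and Mcm5 (-0.67) lie below the grey line at their GC content, and E2f1 (-0.53) lies near it.

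Limb type touches the same comparison, since neither Dup-L library reached 1 CPM of Pitx1. Against WT 2 and WT 4 alone, where 27.4% of all genes were called, 6 genes rose (Birc5, Bub1, Ccne2, Cdkn1b, Mki67 and Top2a) and 7 fell (Ccnd1, Cdc20, Cdt1, E2f1, Mcm2, Mcm5 and Plk1). Mcm2 was then at -0.60 (adjusted p = 0.0066), Cdt1 at -0.72 (adjusted p = 0.00486) and Plk1 at -0.62 (adjusted p = 0.00515). With Pitx1 as a covariate none of the 31 passed in edgeR, as was so for all 17655 genes, with Mcm2 at -0.45 (adjusted p = 0.0997). Leaving out Dup-L 1 left 4 calls (15.6% of all genes) and leaving out Dup-L 2 left 3 (6.37%). Cdt1, Mcm2 and Plk1 passed in both. Markers of other cell types moved in the same comparison: 6 of 10 surface ectoderm markers fell in Dup-L, as did 5 of 10 of endothelium (1 rose), 5 of 10 of nerve and glia (2 rose) and 3 of 10 of limb bud mesenchyme (2 rose). Among cartilage, erythroid and macrophage markers 1 of 9, 1 of 7 and 1 of 9 fell, and none of 10 of skeletal muscle, against 16.6% of all genes. The medians were -0.59 for surface ectoderm, -0.45 for cartilage, -0.42 for muscle and -0.66 for erythroid markers, and their part in the cell cycle values was not tested.

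Dup-C against WT gave no call among the 31 genes, against 0.00566% of all genes, which is 1 gene. Of the 31, 4 had an unadjusted p under 0.05, as had 16.6% of all genes. DESeq2 called 0 of the 31 as well, with 0.0942% of all genes called, and gave no adjusted p to 14 of them. All 14 mitotic genes had fold changes above 0, from 0.01 for Ccnb2 to 0.49 for Bub1, with a median of 0.18 against -0.01 over all genes, and the S phase median was 0.09. Both Dup-C libraries were high in Pitx1, and against WT 1 and 3 alone the medians were 0.09 for mitotic and -0.03 for S phase genes. Leaving out WT 1 gave 5 rises, of Birc5, Bub1, Ccne2, Cdk1 and Mki67, in a fit that called 1640 of 17593 genes (9.32%). Levels overlapped WT in most genes, as in Mki67 with 942 and 1062 CPM against 697 to 1017 CPM and in Mcm2 with 297 and 322 CPM against 267 to 417 CPM.

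In ΔBor, 1 of the 31 genes was called, Pttg1, a count near or below the share of all genes called (4.03% in het and 1.27% in hom). Pttg1 encodes securin, which holds back separase until anaphase. Pttg1 stood at 36.3 and 27.7 CPM in ΔBor het and at 37.3 CPM in ΔBor hom. WT had 18.0, 17.1, 17.2 and 14.2 CPM, Dup-C 19.5 and 19.7 CPM, and Dup-L 21.6 and 19.6 CPM. The 4 Dup-LΔBor libraries lay between 11.9 and 13.5 CPM. All 3 ΔBor libraries were above the other 12, and the 4 Dup-LΔBor libraries, named for the same deletion beside the duplication, were below the other 11.

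In ΔBor het, Pttg1 rose, with a log2 value of 0.94 (SE 0.12) and an adjusted p of 0.00142, and was the only call among the 31 genes. In ΔBor hom it rose by 1.16 (SE 0.15, adjusted p = 0.00187), again alone among the 31. It ranked 12 and 9 among 17655 genes by p. Pttg1 with GC and length offsets was at 0.82 and 0.96, and with the batch as a term at 0.87 and 1.09, all past the threshold. It was also past the threshold with Pitx1 as a covariate (adjusted p = 0.00703 and 0.0166). Without ΔBor het 1 the het value was 0.73 (adjusted p = 0.0636), and within the first batch the hom value was 1.04 (adjusted p = 0.0519). When only the 2 groups compared entered the fit, neither passed (adjusted p = 0.107 and 0.245).

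Pttg1 lies on chromosome 11, as do Sox9 and Kcnj2, but its distance from them was not examined. Of the 5 tested genes on each side of it, in the RefSeq order of GRCm38, Ccng1 rose in ΔBor het (0.52, adjusted p = 0.0456) and none passed in ΔBor hom (edgeR). The nearest ones, Slu7 (0.13 and 0.15) and Atp10b (-0.35 and -0.63), did not pass. The rise of Ccng1 in ΔBor het did not pass with GC and length offsets, and Ccng1 also rose in Dup-L against WT (0.61, adjusted p = 0.00397). Ccng1, a p53 target 4 tested genes away, was at 0.60 in ΔBor hom (adjusted p = 0.0618), and Nudcd2 beside it at 0.40 and 0.59 (adjusted p = 0.0786 and 0.0621).

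The other 30 genes did not pass in ΔBor. Cdkn1b was at 99.4, 88.0 and 91.6 CPM, above all 4 WT libraries, with log2 fold changes of 0.62 in ΔBor het (adjusted p = 0.0749) and 0.59 in ΔBor hom (adjusted p = 0.151). Bub1 was at 0.43 and 0.76 (adjusted p = 0.118 and 0.0571), and Mki67 at 0.39 and 0.53. E2f1 was at -0.42 (adjusted p = 0.0628) and Mcm5 at -0.46 in ΔBor het. The ΔBor libraries all lie in the first batch. Both second-batch WT libraries were lower in Cdkn1b and Bub1, and higher in E2f1 and Mcm5, than the first-batch WT libraries. With the batch as a term, neither inhibitor exceeded 0.29 in ΔBor het or 0.26 in ΔBor hom. No S phase gene then lay below -0.30 in ΔBor het. Counts depended on single libraries, over all genes as over these: without WT 1, when 14.2% (het) and 15.6% (hom) of all genes were called, there were 5 calls in ΔBor het (Bub1, Cdkn1b, Mki67 and Pttg1 rose and E2f1 fell) and 7 in ΔBor hom, where Birc5, Bub1, Ccne2, Mki67, Pttg1, Rrm2 and Top2a rose. Without WT 2 there were 4 in ΔBor het (5.32% of all genes), with rises of Cdkn1b and Pttg1 and falls of E2f1 and Mcm5, and without ΔBor het 2 there were 2, Pttg1 and E2f1 (10.9% of all genes).

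**Figure D4:**
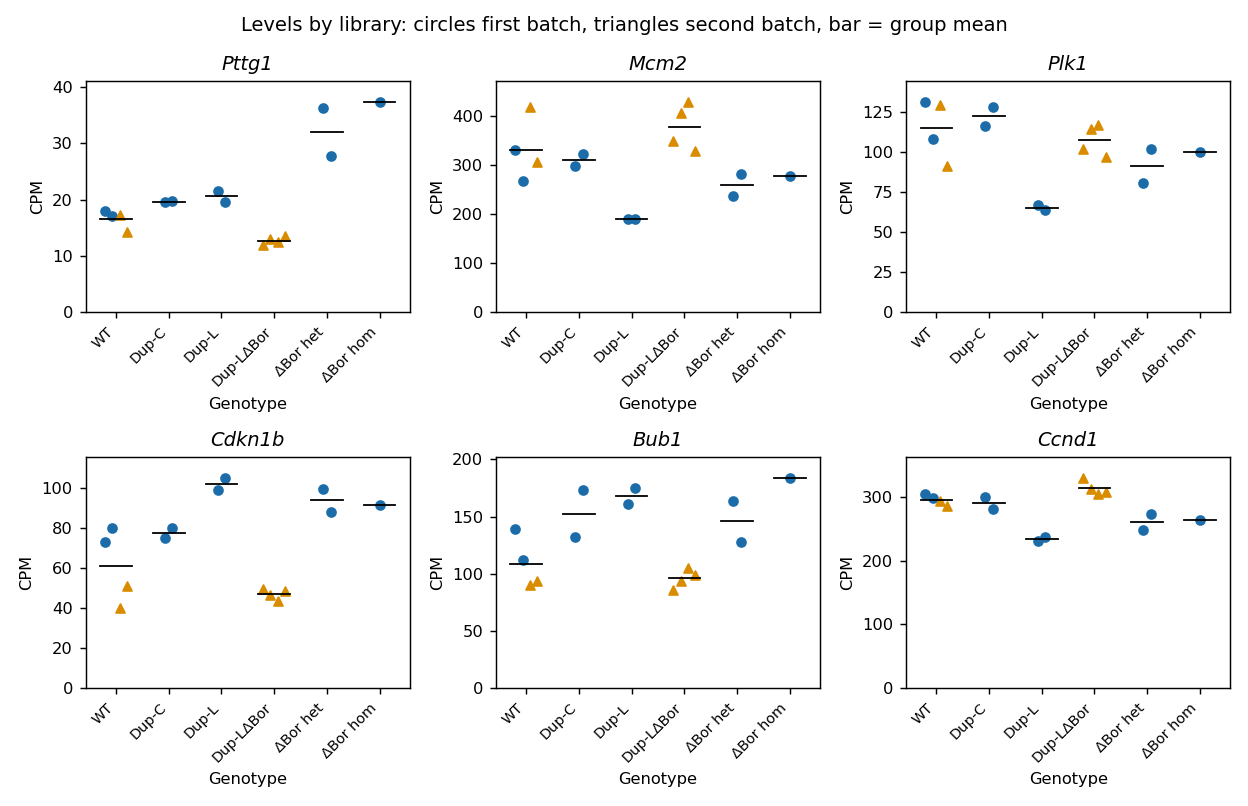
Level in CPM (y axis, from 0) of 6 cell cycle genes in each library, by genotype (x axis). Circles are the first batch, triangles the second, and a bar is the group mean. Pttg1 is high in the 3 ΔBor libraries (27.7 to 37.3 CPM), Mcm2, Plk1 and Ccnd1 are low in Dup-L, and Cdkn1b and Bub1 are low in the triangles of WT and Dup-LΔBor alike.

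Dup-LΔBor against WT gave 1 call of 31, a fall of Pttg1 by 0.39 (SE 0.10, adjusted p = 0.0472), against 3.85% of all genes. Within the second batch Pttg1 was at -0.31 (adjusted p = 0.279), and it lost the threshold without any one of the 4 Dup-LΔBor libraries or of WT 1, WT 2 and WT 3 (adjusted p 0.0566 to 0.118). The S phase genes had a median log2 fold change of 0.01 and the mitotic genes of -0.10, against -0.01 over all genes. Mcm2 was at 348, 406, 428 and 328 CPM and Plk1 at 102, 114, 117 and 96.8 CPM, within or near the WT range. E2f1 was at 0.32 (adjusted p = 0.0766) and Cdkn1b, with 49.2, 46.2, 43.4 and 48.5 CPM, at -0.38 (adjusted p = 0.181). Without WT 3 the calls were a rise of E2f1 and a fall of Cdkn1b, with 6.18% of all genes called. Dup-LΔBor R2 was lowest of its 4 libraries in both groups of genes, with a mean log2 difference from WT of -0.17 over S phase and -0.23 over mitotic genes, and R4 highest with 0.19 and 0.01.

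Dup-LΔBor was set against Dup-L to ask what the boundary deletion adds to the duplication. Of 31 genes, 8 rose and 9 fell, against 43.6% of all genes. The 8 that rose were Mcm2, from 189.5 CPM as a mean in Dup-L to 328 to 428 CPM, and Cdt1 (0.99), Mcm5 (0.85), E2f1 (0.85), Plk1 (0.72), Cdc20 (0.59), Ccnd1 (0.42) and Mcm3 (0.36), in log2 fold change, with adjusted p of 0.00018 (E2f1) to 0.0297 (Mcm3). The 9 that fell were Cdkn1b (adjusted p = 0.000505), Ccne2 (-0.91), Bub1 (-0.81), Pttg1 (-0.69), Mki67 (-0.56), Birc5 (-0.55), Rrm2 (-0.47), Cdk1 (-0.41) and Top2a (-0.39), with adjusted p of 0.000475 (Pttg1) to 0.0265 (Rrm2). This comparison shares its Dup-L libraries with Dup-L against WT, so the 2 are not independent. In Cdkn1b the Dup-LΔBor libraries were at 43.4 to 49.2 CPM and Dup-L at 99.0 and 105 CPM. In Mki67 they were at 639 to 728 CPM and Dup-L at 999 and 1047 CPM.

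The genes that rose did so in each Dup-LΔBor library. Cdt1 was at 70.2, 80.6, 81.9 and 61.4 CPM against 35.5 and 38.6 CPM in Dup-L, and Mcm5 at 377, 480.2, 519 and 407 CPM against 243 and 253 CPM. E2f1 was at 60.9, 70.8, 74.7 and 57.1 CPM against 35.7 and 37.6 CPM. In Cdt1, Mcm5 and E2f1 the groups lay well apart, and R4 was the highest library. Cdc20 was at 147, 172, 181 and 134 CPM against 104 and 107 CPM, Mcm3 at 219, 247, 262 and 204 CPM against 177 and 186 CPM, and Ccnd1 at 331, 314, 305 and 308 CPM against 232 and 238 CPM. Of those that fell, Bub1 was at 85.9, 94.0, 105 and 98.6 CPM against 161 and 175 CPM, and Birc5 at 73.5, 83.4, 86.6 and 79.7 CPM against 114 and 122 CPM. None of these genes overlapped between the 2 genotypes, but they were named because they passed the test, so this adds no support. The other D-type cyclin, Ccnd2, was at 1046, 967, 915 and 1043 CPM and the inhibitor Cdkn1a at 26.0, 21.0, 25.4 and 12.4 CPM, and both overlapped Dup-L or did not pass.

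The 2 genotypes lie in different batches, and only WT links them. Of the 9 genes that fell, Cdkn1b, Ccne2, Bub1, Birc5, Rrm2 and Cdk1 were also lower in both second-batch WT libraries. With the batch as a term, where 2298 of 17655 genes were called, none of the 9 passed in edgeR, where Cdkn1b was at -0.36 (adjusted p = 0.119) and Bub1 at -0.35 (adjusted p = 0.231), and Mcm2 (0.72), Cdt1 (0.84), E2f1 (0.62), Plk1 (0.84) and Ccnd1 (0.48) rose. With GC and length offsets Ccnb1, Ccnd1, Cdt1, Mcm2, Mcm4, Mcm5 and Pcna rose, Birc5, Cdkn1b, Mki67 and Pttg1 fell (27.1% of all genes were called), and with offsets and batch Ccnd1 alone passed (0.42, adjusted p = 0.0451), where 1.29% of all genes were called. With Pitx1 as a covariate (7.87% of all genes called), Mki67 (-0.82) and Pttg1 (-0.80) fell and no gene rose, with Mcm2 at 0.45 (adjusted p = 0.155). Pitx1 was at 40.5 to 73.9 CPM in Dup-LΔBor. Each batch of WT holds 1 library of high and 1 of low Pitx1. The batch term rests on WT, the only genotype in both batches. The Pitx1 term rests on the spread of Pitx1 within genotypes, which was widest in WT. No fit held both terms. Of other markers, 6 of 10 of endothelium rose in Dup-LΔBor relative to Dup-L (1 fell), as did 3 of 10 of surface ectoderm. Limb bud mesenchyme had 3 rises and 3 falls of 10, nerve and glia 2 and 3 of 10, and macrophage 1 and 2 of 9. Of 9 cartilage markers 1 rose and 1 fell (median 0.56), 1 of 7 erythroid markers rose, and no skeletal muscle marker passed. Over all genes 21.5% rose and 22.1% fell, and the part of these markers was not tested.

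Dup-C and Dup-L lie in the same batch. In Dup-C relative to Dup-L, 7 genes rose and none fell, against 15.1% of all genes, and 10 had an unadjusted p under 0.05, as had 32.5% of all genes. Those that rose were Plk1 (0.90, adjusted p = 0.00906), Cdt1 (0.84, adjusted p = 0.0116), Mcm2 (0.71, adjusted p = 0.0198), Mcm5 (0.62, adjusted p = 0.0314), Cdc20 (0.60, adjusted p = 0.0185), Mcm3 (0.44, adjusted p = 0.0499) and Ccnd1 (0.31, adjusted p = 0.0417). DESeq2 also called 7, all rises, where 14.7% of all genes were called. The fit within the batch called a fall of Cdkn1b (-0.37, adjusted p = 0.0333) and did not call Ccnd1, with 15.4% of all genes called. Plk1 was at 116 and 128 CPM in Dup-C against 66.7 and 63.6 CPM, Mcm5 at 365 and 399.8 CPM against 243 and 253 CPM, and Cdc20 at 155 and 165 CPM against 104 and 107 CPM. The groups did not overlap in these 3 genes, which were picked from those that passed. E2f1, which fell in Dup-L against WT, was at 47.7 and 46.6 CPM in Dup-C and did not pass here (0.36, adjusted p = 0.0926). Leaving out any 1 of these 4 libraries left 0 calls among all genes, these 31 included, with Cdt1 at 0.78 to 0.91 (adjusted p 0.0536 to 0.113). With GC and length offsets 0 passed (1.25% of all genes), and the 2 genotypes also differ in Pitx1. Of other markers, 3 of 10 surface ectoderm (median 0.56), 3 of 10 limb bud mesenchyme and 1 of 7 erythroid markers (median 1.39) rose in Dup-C relative to Dup-L. Of 10 nerve and glia markers 2 rose and 1 fell, and no cartilage, muscle, endothelium or macrophage marker passed. Over all genes 9.79% rose and 5.36% fell, and the part of these markers was not tested.

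A wider list of 140 other cell cycle genes, of which 138 were tested, was grouped by step of the cycle. In Dup-L against WT 42 of the 138 rose and 27 fell, where 15.8% of all genes rose and 16.6% fell. Spindle and cytokinesis genes rose in 11 of 18 cases and none fell (median 0.35), among them Hmmr (0.54, adjusted p = 0.00208) and Nusap1 (0.55, adjusted p = 0.003), which bind spindle microtubules. Of 24 kinetochore, condensin and anaphase genes 12 rose and 2 fell, among them the kinetochore genes Cenpi (0.59, adjusted p = 0.00201) and Nuf2 (0.61, adjusted p = 0.00235). Of 27 replisome, nucleotide and chromatin assembly genes 4 rose and 11 fell, led by the subunits of DNA polymerase delta Pold1 (-1.17, adjusted p = 0.00138) and Pold2 (-0.83, adjusted p = 0.00328). Genes of origin licensing and firing rose in 6 and fell in 2 of 17 cases, with the origin recognition subunits Orc4 at 0.81 (adjusted p = 0.00291) and Orc3 at 0.55 (adjusted p = 0.00246). Among 13 mitotic entry regulators 3 rose and 5 fell, including Pkmyt1, which inhibits Cdk1 (-0.74, adjusted p = 0.00162), and the transcription factor Mybl2 (-0.55, adjusted p = 0.00568).

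Of 20 G1 kinases, E2F factors and pocket proteins 4 rose and 3 fell, with Ccnd3 at -0.66 (adjusted p = 0.0025) and E2f4 at -0.53 (adjusted p = 0.00341). Of 19 other inhibitors and p53 targets 2 rose, Trp53inp1 (0.71, adjusted p = 0.00331) and Ccng1 (0.61, adjusted p = 0.00397), and 4 fell. The genes named as rising had 36.8% to 41.8% GC and those named as falling 56.1% to 61.0%. With GC and length offsets 0 of the 138 rose (edgeR) and 6 fell, 5 of them among the 27 replisome, nucleotide and chromatin assembly genes, and the spindle median was 0.08.

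In Dup-LΔBor against WT the wider list gave 1 rise and 2 falls of 138, against 3.85% of all genes called. The p53 regulator Mdm2 rose (0.32, adjusted p = 0.0478), and E2f2 (-0.53, adjusted p = 0.0248) and Myc (-0.62, adjusted p = 0.028), which drives entry into the cycle, fell. In the other groups the 2 lowest p belonged to genes that did not pass: Nuf2 (-0.35) and Ndc80 (-0.36) of the kinetochore, Nusap1 (-0.31) and Ckap2l (-0.27) of the spindle, Gsg2 (-0.47) and Nek2 (0.27) of mitotic entry, Gins2 (-0.26) and Cdc45 (0.28) of origin firing, Chaf1b (-0.32) and Rpa3 (-0.35) of the replisome group, and the receptor gene Eda2r (0.89). ΔBor het gave 5 rises and 1 fall and ΔBor hom 3 rises of 138, shares near the 4.03% and 1.27% of all genes called. The rises were of Nuf2, Spc25, Orc3, Nusap1 and Ccng1 in ΔBor het and of Nuf2, Orc3 and E2f5 in ΔBor hom, and Pold1 fell in ΔBor het by 0.85. With GC and length offsets none of these rises passed. Dup-C against WT gave 0 calls of 138 (edgeR), with a median of 0.19.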

How the data were processed

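The submitters' processing notes name STAR, DESeq2, bedtools 2.17.0 and the build mm9, without saying what each was used for, and no source used here gives the counting step. Gene by library, the authors deposited raw counts, and a second deposited table holds the authors' FPKM. The members and gene lists were chosen with earlier results of these data known. Library-by-library values are given for members past the threshold in at least 2 of 7 comparisons and for Ccnd1, Ccnd2, Cdkn1a and Cdkn1b; of each wider group the 2 genes of lowest p in Dup-L and in Dup-LΔBor are named.

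Counts were fitted in R 4.3.3 with edgeR 4.0.16 (TMM, filterByExpr, robust quasi-likelihood F-test, two-sided, 6 groups, 15 libraries, 17655 genes), adjusted by Benjamini-Hochberg with a threshold of 0.05, and the procedure was tested on simulated data. Alternatives used DESeq2 1.42.0, limma 3.58.1 on log2(FPKM + 1) or log2(FPKM + 0.1), and GC and length offsets from mgcv 1.9.3 with GENCODE transcripts of GRCm38. The 4 Dup-LΔBor columns are named R2 to R5 and could not be matched to single samples. R4 and R5 share the library number 6758 in their headers but differ in total counts (48937748 and 37126548). Whether they are independent replicates is not known, and every fit treated them as such. ΔBor hom has 1 library and is assumed to vary like the others. The 2 fingertip samples were not analysed here.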

Additional observations from a re-analysis of the deposited data

Results flagged for a closer look

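Aurka, a mitotic kinase, was at 106 CPM in WT 1, apart from the other WT libraries at 85.0 to 87.8 CPM. The gap was 0.867 of the range of the group (Dixon's ratio), above the critical value for 4 samples. This was 1 of 62 groups of 4 libraries checked, and chance marks about 1 in 20.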

How the results depend on the processing

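Of 472 values of single genes past the threshold recomputed under other settings, 330 kept direction and call, 135 lost the threshold and 7 changed sign; on leaving out a library, 146 of 214 kept both, 68 lost the threshold and 0 changed sign. The sign changes were, with GC and length offsets and the batch together, Bub1 (-0.02) and E2f1 (0.08) in Dup-L against WT and Bub1 (0.11), Ccne2 (0.21), Rrm2 (0.24) and Top2a (0.00) in Dup-LΔBor against Dup-L, and, with Pitx1 as a covariate, Mcm3 (-0.05) in the latter. Their cause was not tested.

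The number of the 31 genes past the threshold moved as follows, with the share of all genes called in brackets. With GC and length offsets it was 0 in Dup-C against Dup-L (1.25%), 2 for Dup-L against WT (5.87%) and 11 for Dup-LΔBor set against Dup-L (27.1%). With the batch added it was 3 (7.08%), 0 (0.952%) and 1 (1.29%), and 0 in Dup-LΔBor against WT (0.81%). With Pitx1 as a covariate it was 0 (0%), 0 (0%) and 2 (7.87%), and 6 in ΔBor het (6.33%). With only the 2 groups compared it was 15 in Dup-C against Dup-L (34.1%) and 0 in Dup-LΔBor (0.685%), ΔBor het (0.0531%) and ΔBor hom (0.017%) against WT. The batch as a term gave 5 for Dup-LΔBor set against Dup-L (2298 of 17655 genes) and 0 for Dup-LΔBor against WT (0.396%). Within 1 batch it was 0 in Dup-LΔBor (0.392%) and ΔBor hom (0.151%) against WT. DESeq2 gave 5 in ΔBor het (8.86%) and 4 in ΔBor hom (8.99%). Without a filter it was 0 in Dup-LΔBor against WT, on counts (2.05%) and on FPKM (0.862%), and 4 in Dup-C against Dup-L on FPKM (6.35%). With WT libraries of like Pitx1, an alternative chosen after seeing the data, it was 2 in Dup-LΔBor against WT (8.24%).

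Leaving out 1 library gave 0 to 0 in Dup-C against Dup-L, 0 to 5 in Dup-C, 3 to 13 in Dup-L, 0 to 2 in Dup-LΔBor, 0 to 5 in ΔBor het and 1 to 7 in ΔBor hom, each against WT, and 13 to 18 in Dup-LΔBor against Dup-L. The share of all genes called also moved. On leaving out 1 WT library it ran from 0.00568% to 9.32% in Dup-C and 26.9% to 33.8% in Dup-L. In the same fits it ran from 1.02% to 8.62% in Dup-LΔBor and 0.318% to 14.2% in ΔBor het. On leaving out 1 Dup-LΔBor library it ran from 37.9% to 43.6% in Dup-LΔBor against Dup-L. The lowest counts in that comparison came from fits without 1 Dup-L library, in which fewer of all genes were called. In ΔBor hom the count and the share were both highest without WT 1. In ΔBor het both were lowest without ΔBor het 1. With the replicate block the count was 3 in Dup-L (8.11%) and 0 in ΔBor het (0.218%) against WT and 5 in Dup-C against Dup-L (9%). Deviations from the group mean correlated at -0.162 to 0.138 between same-numbered samples. In a group of 2 libraries the 2 deviations mirror each other, so this check cannot decide whether the samples are paired. No paired analysis was possible for Dup-LΔBor because its columns carry no label number, or for ΔBor hom because it has 1 library. How far depth or the number of libraries limits these counts was not tested.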
